A study of Mus musculus with 6 samples.

Results

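The phagocyte NADPH oxidase is the enzyme with which macrophages and neutrophils make superoxide. It was followed here through the genes of 7 of its parts: Cybb, Cyba, Cybc1, Ncf1, Ncf4, Rac1 and Rac2. The members were taken by gene symbol from a table of 15824 mouse genes, where each symbol named 1 row, and all 7 passed the filter on low counts. The question was whether the other 6 genes follow Cybb, the gene of the catalytic subunit, when Men1 is knocked out. The samples were labelled as alveolar macrophages, sorted from mouse lung at an age of 8 weeks by flow cytometry, with polyA-selected RNA. There were 3 libraries with a Men1 knockout (KO) and 3 wild-type (WT) libraries, with no treatment other than the sort. The labels give no knockout allele, Cre driver, strain or sex, so the cells in which Men1 was deleted are not known. They do not say that each library is a mouse of its own, so p-values here reflect the spread among these 6 libraries, which may be technical.

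In a resting phagocyte the oxidase lies in separate pieces. The membrane holds flavocytochrome b558, a pair of gp91phox (NOX2, the product of Cybb) and p22phox (Cyba), which carries the flavin and heme groups that pass electrons from NADPH to oxygen. The chaperone EROS (Cybc1) is needed for that pair to reach its mature form. The cytosol holds the organizer p47phox (Ncf1) and p40phox (Ncf4), which travel in 1 complex, and a small GTPase, Rac1 or Rac2, kept inactive by a GDP dissociation inhibitor. On stimulation p47phox is phosphorylated, the cytosolic proteins move to the membrane with GTP-bound Rac, and superoxide is made. Loss of CYBB, CYBA, NCF1, NCF4 or CYBC1 causes chronic granulomatous disease in humans. Men1 encodes menin, a nuclear scaffold protein that acts with histone methyltransferases of the MLL family.

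The estimated read counts summed to between 19955242 and 20151990 per library. Men1 itself had 150, 149 and 165 counts in the KO libraries, against 639, 594 and 603 in the WT libraries, and was 3.80-fold lower in KO cells (adjusted p = 7.24e-24, edgeR quasi-likelihood test). Summed CPM (counts scaled to the size of the library) of 4 Y-linked genes lay between 0 and 0.102 in KO libraries, against 162 to 169 in WT libraries, so genotype and the sex of the mice cannot be told apart in these data. Markers of other cells also differed. The monocyte list, whose cells also express the oxidase, summed to 125 to 130 CPM in KO libraries, against 68.6 to 70.3 in WT libraries, with 4 of 6 genes higher and 2 lower. The neutrophil list summed to 736 to 759 CPM in KO libraries, against 859 to 877 in WT libraries, most of it from Mmp8, with 5 of 7 tested genes higher and 2 lower, while Elane and Retnlg reached at most 3 counts in any library. Among 7 general macrophage markers 5 were higher and none was lower, summing to 32268 to 33030 CPM in KO libraries, against 27488 to 28643 in WT libraries. The labelled cell type was poorly borne out by the alveolar macrophage list, of whose 10 genes 8 were present in the data. The list summed to 76.6 to 79.7 CPM in KO libraries, against 126 to 132 in WT libraries, most of it from Atp6v0d2. Of 4 tested genes 2 were higher (Chil3 and Trim29) and 2 lower. Siglecf averaged only 1.34 CPM in KO cells and 2.06 CPM in WT cells. Fabp1, Plet1 and Ear2 reached at most 3 counts in any library. The fibroblast list summed to 8.12 to 9.53 CPM in KO libraries, against 77.1 to 79.6 in WT libraries, with all 7 genes lower. The dendritic cell list summed to 25.4 to 26.8 CPM in KO libraries, against 15.03 to 16.8 in WT libraries, with 3 of 4 tested genes higher and 1 lower. The part of any of these cell types in the oxidase values was not tested, and in bulk RNA fewer cells of a type and less RNA per cell cannot be told apart.

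The promoters of Cybb, Ncf1 and Cyba are shown because these genes encode the catalytic chain, the organizer and the membrane partner, whose changes in KO cells were of different size. Each is the stretch from 250 bases before to 30 bases after a RefSeq start on the GRCm38.p6 build, read on the minus strand from 5′ to 3′. The Cybb window is chrX:9469295-9469574, which lies inside the annotated span of the gene, the Ncf1 window is chr5:134229596-134229875, and the Cyba window is chr8:122432911-122433190. Capitals mark letter matches on either strand to 3 motifs. The PU.1-type motif is GAGGAA. The CCAAT box is searched by the letters of its name. The interferon response type motif is a repeat of GAAA with any 2 bases between the 2 copies.
Cybb: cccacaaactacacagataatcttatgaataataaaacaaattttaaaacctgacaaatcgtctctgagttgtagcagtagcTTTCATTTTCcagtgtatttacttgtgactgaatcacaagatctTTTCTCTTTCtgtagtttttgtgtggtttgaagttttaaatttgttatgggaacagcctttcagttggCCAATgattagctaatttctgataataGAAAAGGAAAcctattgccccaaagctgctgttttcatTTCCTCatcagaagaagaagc
Ncf1: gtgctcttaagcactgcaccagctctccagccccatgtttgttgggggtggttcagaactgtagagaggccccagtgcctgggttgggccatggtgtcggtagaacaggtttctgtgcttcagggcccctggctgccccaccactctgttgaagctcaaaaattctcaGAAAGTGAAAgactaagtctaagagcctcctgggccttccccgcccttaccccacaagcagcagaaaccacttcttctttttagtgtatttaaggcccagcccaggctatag
Cyba: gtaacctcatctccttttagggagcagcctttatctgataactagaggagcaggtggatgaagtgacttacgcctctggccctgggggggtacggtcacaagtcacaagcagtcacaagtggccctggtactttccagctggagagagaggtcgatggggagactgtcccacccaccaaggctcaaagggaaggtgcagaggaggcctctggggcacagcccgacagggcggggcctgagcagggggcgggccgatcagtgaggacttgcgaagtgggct
Reading these windows, the Cybb sequence holds 3 letter matches of the interferon response type, starting at positions -168, -124 and -29 from the start site, a CCAAT box at -56, and GAGGAA on the reverse strand at 10. The Ncf1 sequence holds 1 interferon response type match, at -82. The Cyba sequence holds no match to any of these 3 motifs, and neither of the 2 windows listed for Cybc1 holds an interferon response type match, while 1 of them holds a CCAAT box at -208 and the other GAGGAA at -184. Across 32851 promoter windows of the same 280 bases, the interferon response type occurred in 3.28%, GAGGAA in 26.0% and CCAAT in 36.1%. A further pair of motifs was searched and is not in capitals. GGGCGG, an Sp1-type site found in 34.7% of windows, occurred in Cyba at -24 and -6 and in Ncf1 on the reverse strand at -42. TGA, any base and TCA, an AP-1 type site found in 7.46% of windows, occurred in Cybb at -139. The motifs did not overlap one another in these windows, and a match is a description of letters, not a measured binding site.

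On scaled counts all 7 oxidase genes were higher in KO than in WT macrophages, by very different amounts, while on TPM (per transcript length) Ncf4 turned slightly lower. Cybb was 2.08-fold higher. Rac2 and Ncf1 followed with 1.49-fold and 1.44-fold, and Rac1, Cyba, Cybc1 and Ncf4 lay between 1.09-fold and 1.15-fold. All 7 passed the threshold of 0.05 on the Benjamini-Hochberg adjusted p of edgeR's quasi-likelihood test over 11817 tested genes, and none was lower. The threshold was passed by 69.2% of all tested genes, 34.4% as higher and 34.9% as lower, so passing it sets the 4 smaller changes little apart from the rest. For all 7 genes every KO library was above every WT library in CPM, as it was for 35.4% of tested genes. Only Cybb was at least 2-fold higher, a size reached with a passing p by 3.26% of tested genes. The median log2 fold change of the members was 0.20, against 0.00 over all tested genes.

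**Figure D1:**
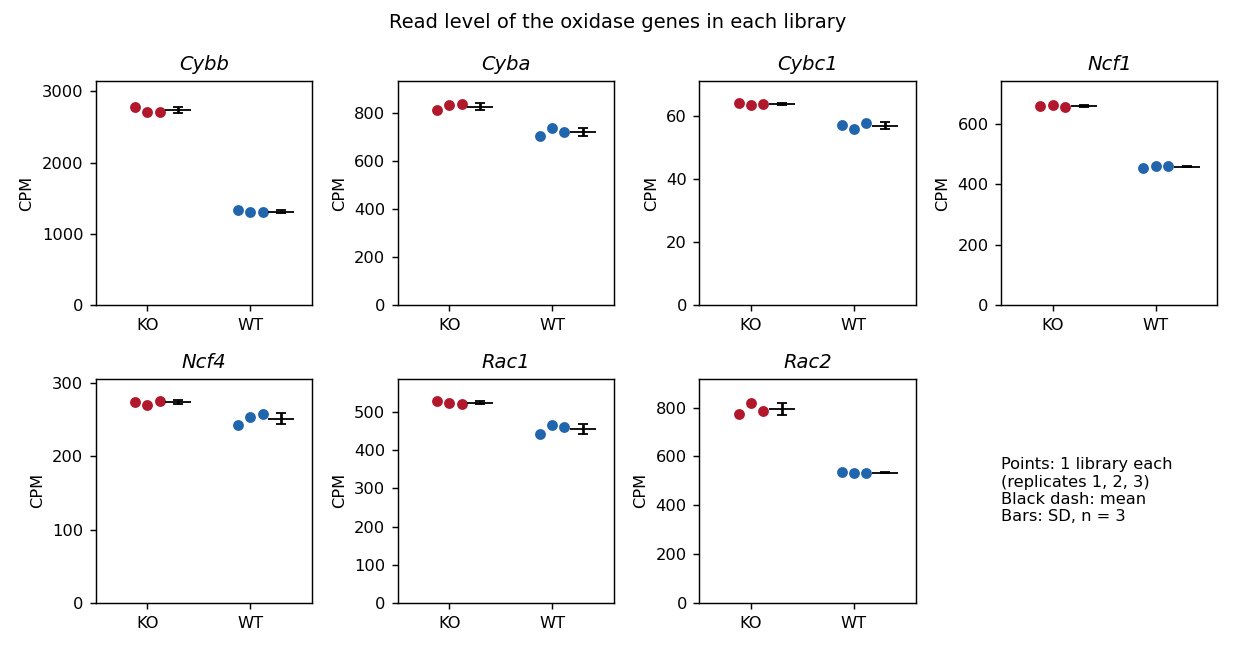
Level in CPM of the 7 oxidase genes in each library, 1 panel a gene with its own axis from 0, KO points left of WT points, and a black dash at each mean with SD bars (n = 3). The KO and WT points of every gene are apart, with the widest gap for Cybb (2732 CPM in KO, 1313 CPM in WT) and narrow gaps for Ncf4, Cybc1, Rac1 and Cyba.

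Cybb encodes gp91phox, the chain that binds FAD and NADPH. It lies on chromosome X from 9435252 to 9487766 (GRCm38.p6, gene ID 13058). It had 54815, 52939 and 53196 counts in the KO libraries, against 27215, 26565 and 26653 in the WT libraries. Every KO library was above every WT library, and the spread within each group was small beside the gap. In CPM this was 2732 ± 43.4 in KO cells and 1313 ± 19.3 in WT cells (SD, n = 3 each), with a log2 fold change of 1.06 (SE 0.0169, 95% interval 1.02 to 1.09, adjusted p = 1.30e-34 by edgeR's quasi-likelihood test). By CPM it stood at rank 22 among all tested genes in KO cells and at rank 52 in WT cells. A higher log2 fold change was seen for 353 genes, or 2.99% of those tested.

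Cyba encodes p22phox, which anchors p47phox at the membrane and is stable only together with its partner chain. It lies on chromosome 8 from 122424771 to 122432940 (gene ID 13057). Cyba had 15976, 16311 and 16445 counts in the KO libraries, against 14341, 15015 and 14834 in the WT libraries. The groups did not overlap, but the gap was small: 827 ± 14.4 CPM in KO cells and 722 ± 17.1 CPM in WT cells (SD, n = 3 each). The log2 fold change of Cyba was 0.20 (SE 0.0195, 95% interval 0.16 to 0.24, adjusted p = 3.94e-11, edgeR). Of all tested genes, 28.4% had a higher one. The message of the membrane partner thus had an interval wholly below that of Cybb.

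Cybc1 encodes EROS, the chaperone of the flavocytochrome, and lies on chromosome 11 from 121222588 to 121229309 (gene ID 217370). It was the least abundant of the 7, with 1264, 1243 and 1255 counts in the KO libraries, against 1165, 1136 and 1186 in the WT libraries. The lowest KO library was above the highest WT library by a narrow margin. Cybc1 averaged 63.9 ± 0.335 CPM in KO cells and 56.9 ± 1.03 CPM in WT cells (SD, n = 3 each), a log2 fold change of 0.17 (SE 0.0361, 95% interval 0.09 to 0.24, adjusted p = 0.000127, edgeR).

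Of the cytosolic phox subunits, Ncf1 changed more than Ncf4. It encodes p47phox, whose phosphorylation starts assembly, and lies on chromosome 5 from 134220053 to 134229628 (gene ID 17969). Ncf1 had 12990, 13004 and 12913 counts in the KO libraries, against 9288, 9360 and 9466 in the WT libraries. The KO libraries lay close together and far above the WT libraries. Its level was 660.5 ± 3.38 CPM in KO cells and 459 ± 2.99 CPM in WT cells (SD, n = 3 each), with a log2 fold change of 0.52 (SE 0.0189, 95% interval 0.49 to 0.56, adjusted p = 1.22e-23, edgeR). Of all tested genes, 10.1% had a higher one.

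Ncf4 encodes p40phox, which binds phosphatidylinositol 3-phosphate and supports oxidase activity at phagosomes. It lies on chromosome 15 from 78244164 to 78262582 (gene ID 17972) and had the smallest change of the 7. Ncf4 had 5413, 5296 and 5411 counts in the KO libraries, against 4957, 5169 and 5272 in the WT libraries. The groups nearly touched, with 5296 counts in the lowest KO library and 5272 in the highest WT library. Its level was 274 ± 2.73 CPM in KO cells and 251 ± 7.26 CPM in WT cells (SD, n = 3 each), with a log2 fold change of 0.12 (SE 0.0237, 95% interval 0.07 to 0.17, adjusted p = 2.50e-05, edgeR).

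The pair of Rac GTPases did not move alike. Rac2, the form largely restricted to blood cells and the main oxidase partner of neutrophils, lies on chromosome 15 from 78559169 to 78572783 (gene ID 19354). It had 15211, 16050 and 15451 counts in the KO libraries, against 10909, 10817 and 10901 in the WT libraries. The groups were far apart, with more spread among the KO libraries. Rac2 averaged 793 ± 24.5 CPM in KO cells and 533 ± 2.20 CPM in WT cells (SD, n = 3 each), with a log2 fold change of 0.57 (SE 0.0203, 95% interval 0.53 to 0.62, adjusted p = 6.78e-24, edgeR). Rac1, the form found in nearly all cells, which also drives membrane ruffling, lies on chromosome 5 from 143505481 to 143528031 (gene ID 19353). It had 10432, 10263 and 10231 counts in the KO libraries, against 8993, 9478 and 9432 in the WT libraries. The WT libraries were the more scattered group for Rac1, and all lay below the KO libraries. Rac1 averaged 525 ± 4.18 CPM in KO cells and 456 ± 12.7 CPM in WT cells (SD, n = 3 each), with a log2 fold change of 0.20 (SE 0.0209, 95% interval 0.16 to 0.25, adjusted p = 8.38e-11, edgeR).

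Reads of these paralogs could be told apart over most of their length. The transcripts of Rac1 and Rac2 shared a longest identical run of 29 bases and no run of 50. On the opposite strand, 2309 of the 4496 exon bases of Rac1 overlap Daglb, which had at most 1463 counts in a KO library and 992 in a WT library. Smaller overlaps were 408 of 3663 exon bases between Ncf1 and Gtf2ird2, and 68 of 4213 between Cybc1 and Hexdc. The sources used here do not state whether counting used strand, so Rac1 carries some uncertainty from Daglb. The part of these overlaps in the values was not tested.

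**Figure D2:**
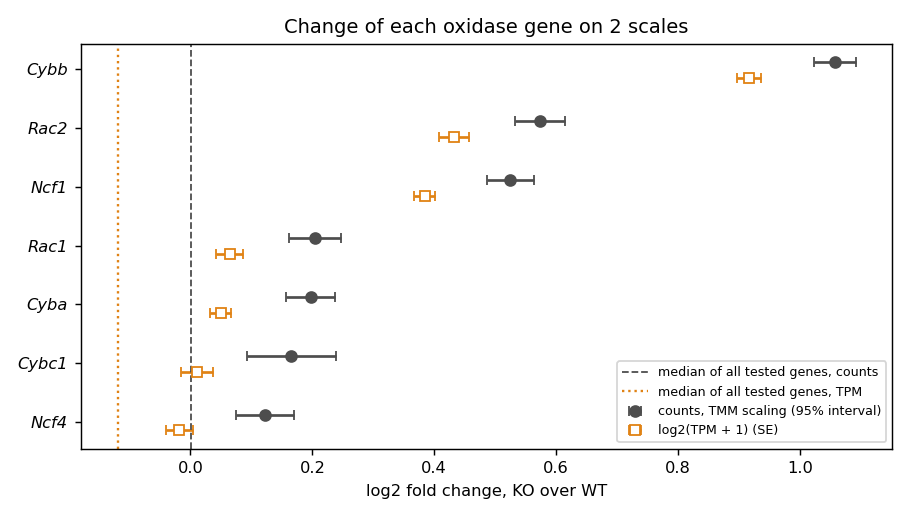
Log2 fold change, KO over WT, of the 7 oxidase genes on counts (filled circles, 95% intervals) and on TPM (open squares, SE), with lines at the median of all tested genes. On counts Cybb lies at 1.06, Rac2 at 0.57, Ncf1 at 0.52, and the other genes between 0.12 and 0.20. On TPM all points shift down and Ncf4 lies at -0.02.

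How far the 4 small changes hold depended on the scale. The authors' deposited TPM values divide each gene's reads by its length and set every library to the same total. On log2(TPM + 1) with limma, the median log2 fold change of all tested genes was -0.12, against 0.00 on counts scaled by edgeR. On that TPM scale Cybb was at 0.92, Rac2 at 0.43 and Ncf1 at 0.38, each still with KO and WT libraries apart. Rac1 was at 0.06 (adjusted p = 0.0295, limma) and Cyba at 0.05 (adjusted p = 0.0278, limma). Cybc1 was at 0.01 (adjusted p = 0.718, limma) with 40.6, 40.2 and 40.3 TPM in KO libraries, against 40.4, 39.5 and 40.3 TPM in WT libraries, which overlap. Ncf4 turned to -0.02 (adjusted p = 0.478, limma), with 321, 315 and 320 TPM in KO libraries, against 314, 326 and 328 TPM in WT libraries, which overlap too. Relative to the median of all genes on the TPM scale, Cybc1 was still higher by 0.13 and Ncf4 by 0.10. So 5 of the 7 passed as higher on TPM, where 20.8% of tested genes did.

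The libraries of a group were very alike, with a biological coefficient of variation of 1.66%. With a coefficient of 0.1 assumed instead, a value often taken for animals of 1 strain, edgeR still called Cybb, Rac2 (adjusted p = 1.10e-05) and Ncf1 (adjusted p = 6.91e-05). It then left Rac1 (adjusted p = 0.169), Cyba (adjusted p = 0.185), Cybc1 (adjusted p = 0.297) and Ncf4 (adjusted p = 0.445) short of the threshold. Under that assumption 3 of 7 members were higher, against 18.4% of tested genes.

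The other 6 genes changed less than Cybb. Set against Cybb within each library, which removes library scaling, every partner was lower in KO cells. Per 100 Cybb counts there were 27.7, 30.3 and 29.0 Rac2 counts in KO libraries, against 40.1, 40.7 and 40.9 in WT libraries, a drop of 28.5%. For Ncf1 there were 23.7, 24.6 and 24.3 counts per 100 of Cybb in KO libraries, against 34.1, 35.2 and 35.5 in WT libraries, a drop of 30.8%. These are the partners that came closest to Cybb.

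The other partners lost more ground. Cyba had 29.1, 30.8 and 30.9 counts per 100 of Cybb in KO libraries, against 52.7, 56.5 and 55.7 in WT libraries, 44.9% lower in KO cells. Rac1 had 19.0, 19.4 and 19.2 in KO libraries, against 33.0, 35.7 and 35.4 in WT libraries. Cybc1 had 2.31, 2.35 and 2.36 in KO libraries, against 4.28, 4.28 and 4.45 in WT libraries. Ncf4 had between 9.88 and 10.2 in KO libraries, against 18.2, 19.5 and 19.8 in WT libraries, the largest drop at 47.7%. For all 6 ratios the KO and WT libraries did not overlap. Each gave a two-sided exact permutation p = 0.1, the smallest that 3 against 3 libraries allow, so this test cannot reach 0.05. All 6 ratios share the Cybb count, and only 2.99% of tested genes had a higher log2 fold change than Cybb. Most tested genes would thus give a lower ratio to Cybb in KO cells, so the drop is not particular to the partners. On the log2 scale the partners changed less than Cybb by between 0.48 for Rac2 and 0.93 for Ncf4.

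**Figure D3:**
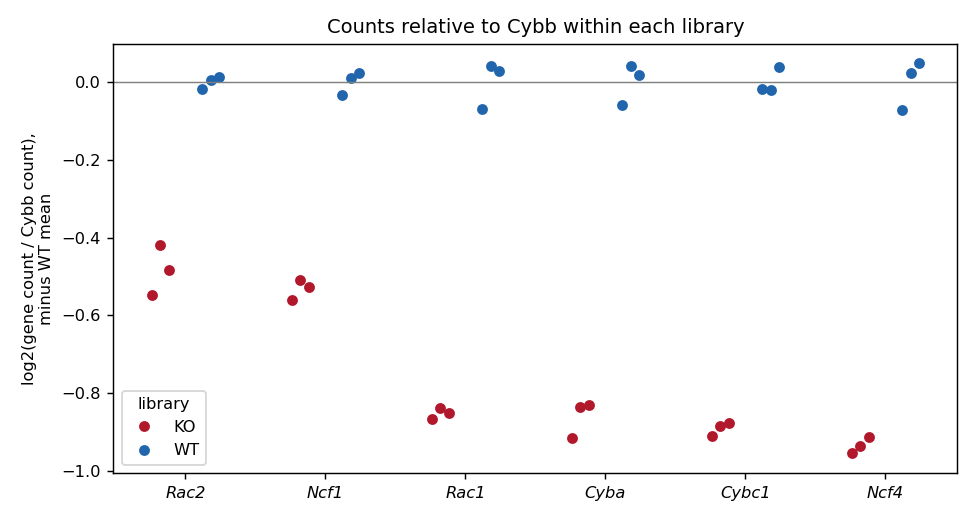
Log2 ratio of each partner's count to the Cybb count in every library, minus the mean of that ratio in WT libraries, KO points left of WT points. For all 6 partners the 3 KO libraries lie below the 3 WT libraries, with the nearest groups for Rac2 and Ncf1.

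Levels of different genes can be compared on TPM, which is per length. In KO cells the order was Cyba (2543 ± 17.7 TPM), Cybb (806 ± 12.4), Rac2 (382 ± 12.4), Ncf1 (360.1 ± 2.60), Rac1 (353 ± 3.54), Ncf4 (319 ± 2.84) and Cybc1 (40.4 ± 0.193), and no neighbours overlapped between their libraries. In WT cells it was Cyba (2458 ± 26.9 TPM), Cybb (427 ± 6.94), Rac1 (338 ± 8.53), Ncf4 (323 ± 7.55), Rac2 (283 ± 1.82), Ncf1 (276 ± 1.11) and Cybc1 (40.1 ± 0.506), where Rac1 and Ncf4 overlapped (SD, n = 3 each). Rac2 and Ncf1 were thus above Rac1 and Ncf4 in KO cells and below them in WT cells. The order was the same on the authors' FPKM values.

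**Figure D4:**
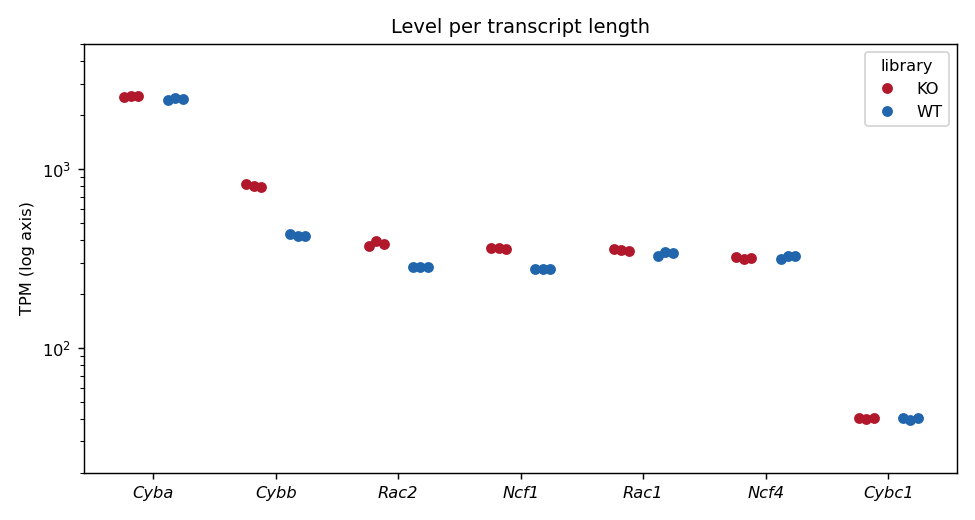
TPM of the 7 oxidase genes in each library (log axis), KO points left of WT points. Cyba is the most abundant and Cybc1 the least abundant message in both genotypes, and Rac2 and Ncf1 lie above Rac1 and Ncf4 in KO cells but below them in WT cells.

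The proportions between messages of the complex differed accordingly. For each Cybb transcript there were 3.15 ± 0.0696 Cyba transcripts in KO cells and 5.76 ± 0.134 in WT cells, so Cyba stayed in excess on the TPM scale. The chaperone Cybc1 stood at 0.0501 transcripts per Cybb transcript in KO cells and at 0.0938 in WT cells. Rac2 per Rac1 was 1.08 ± 0.0390 in KO cells and 0.839 ± 0.0260 in WT cells, and Ncf1 per Ncf4 was 1.13 ± 0.0176 in KO cells and 0.854 ± 0.0168 in WT cells. For these 4 ratios the groups did not overlap (two-sided exact permutation p = 0.1 each, the smallest possible). Ncf1 per Rac2 overlapped, at 0.942 ± 0.0251 in KO cells and 0.974 ± 0.0100 in WT cells (two-sided exact permutation p = 0.2, SD, n = 3 each), so a difference between these genes was not shown. The summed Rac messages were 729, 749 and 728 TPM in KO libraries, against 613, 627 and 621 TPM in WT libraries.

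By position, Cybb is the X-linked member, and the groups were fully apart in Y-linked genes as described above. On chromosome X 31.9% of 385 tested genes were higher in KO cells, against 34.5% of 11428 on the autosomes. Called at least 2-fold higher were 14 of these X-linked genes and 371 of the autosomal ones, beside 3.26% of all tested genes. The other 6 members are autosomal, and all 6 were called higher when X-linked and Y-linked genes were left out of the fit. That setting changes little but the scaling, so it cannot test an effect of sex on these genes. Ncf4 and Rac2 both lie on chromosome 15, within 328.62 kb. Of the 6 other tested genes between them, 5 were higher and 1, Tst, was 1.46-fold lower in KO cells, where 44.2% of 455 tested genes on chromosome 15 and 34.4% of all tested genes were higher. Between them, Csf2rb2, a mouse IL-3 receptor gene, was 1.29-fold higher and Csf2rb, the gene of the signalling chain of the GM-CSF receptor, 1.15-fold higher. This interval was looked at after the values had been seen.

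Genes with the pattern most like that of Cybb were found by Euclidean distance between centred log2 CPM over the 6 libraries, among 1948 tested genes with a mean of at least 100 CPM. Cybc1 lies under that level, and its distance was set against the same genes. The nearest to Cybb were Pid1 (distance 0.0268), the integrin chain gene Itgal (0.0480) and the RNA sensor gene Tlr8 (0.0626). Next came the transferrin receptor gene Tfrc (0.0669) and AB124611 (0.0723). The log2 fold changes of these genes lay between 1.03 and 1.08. The oxidase partners were much farther off. Rac2 was nearest with 115 genes closer to Cybb, followed by Ncf1 with 134, Rac1 with 545, Cyba with 566, Cybc1 with 627 and Ncf4 with 742. With 6 libraries in 2 groups this measure mostly reflects the size of the KO difference.

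Around the complex, 9 lists of pathway genes held 132 tested genes other than the members. Of these, 76 (57.6%) were higher in KO cells and 37 lower by edgeR's quasi-likelihood test, with a median log2 fold change of 0.16. Over all tested genes 34.4% were higher and 34.9% lower. On TPM 56 list genes were higher and 48 lower. Higher genes made up 67.3% of the lists' calls on counts and 53.8% on TPM. Over all tested genes they made up 49.6% of calls on counts and 29.9% on TPM.

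Receptors that trigger the oxidase or, like those for interferon gamma and GM-CSF, prime cells for it moved most. Of 21 tested, 17 (81.0%) were higher, 3 lower and 1 did not pass, against 34.4% of all tested genes higher and 34.9% lower. The 1 not passing was Fcgr2b, the gene of an inhibitory Fc receptor. The median log2 fold change was 0.40. On TPM 16 were higher and 4 lower, where 20.8% of all tested genes were higher. The formyl peptide receptor gene Fpr1 had 247 ± 3.50 CPM in KO cells and 74.8 ± 3.16 CPM in WT cells (SD, n = 3 each), 3.31-fold higher (adjusted p = 6.81e-34, edgeR). Its relative Fpr2 was 3.02-fold higher, with 166 ± 3.34 CPM in KO cells and 55.0 ± 0.416 CPM in WT cells. Ifngr1, a chain of the interferon gamma receptor, was 2.29-fold higher (204 ± 4.85 CPM in KO cells, 88.8 ± 2.71 CPM in WT cells). Fcer1g, the signalling chain of activating Fc receptors, was 2.04-fold higher (675 ± 18.2 CPM in KO cells, 330.4 ± 4.98 CPM in WT cells). The fold changes of Fpr1, Fpr2 and Ifngr1 were thus above that of Cybb, and that of Fcer1g was just under it.

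Kinases, lipid enzymes and channels of oxidase activation followed a weaker pattern, with 16 of 25 tested (64%) higher, 7 lower and 2 not passing. Over all tested genes 34.4% were higher and 34.9% lower. The list median was 0.16. Prkcb, a protein kinase C that phosphorylates p47phox, was 1.38-fold higher (351 ± 6.97 CPM in KO cells, 254 ± 2.96 CPM in WT cells). Pik3cd, a catalytic chain of phosphoinositide 3-kinase, was 1.39-fold higher. Prdx6, which has phospholipase and peroxidase activity, was 1.51-fold lower (393 ± 10.3 CPM in KO cells, 593 ± 11.4 CPM in WT cells), and the phospholipase gene Pla2g4a was 1.42-fold lower.

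The regulators of Rac went both ways. Of 16 tested exchange factors and their partners, which load Rac with GTP, 8 (50%) were higher, 6 lower and 2 did not pass. Over all tested genes 34.4% were higher and 34.9% lower. The list median was 0.08. On TPM 4 were higher and 7 lower, with a median of -0.03. Of all 11817 tested genes 20.8% were higher on TPM and 5781 were lower, with a median of -0.12. The list median less that of all tested genes was 0.09 on TPM and 0.07 on counts. Dock2, the main Rac activator of blood cells, was 1.37-fold higher (436 ± 4.52 CPM in KO cells, 319 ± 7.30 CPM in WT cells), and its partner Elmo1 was 1.18-fold higher, a call lost with the assumed coefficient of variation of 0.1 (adjusted p = 0.115, edgeR). Swap70 was 1.29-fold higher and Arhgef7 1.34-fold lower. Of 11 tested Rac inhibitors 5 (45.5%) were higher, 5 (45.5%) lower and 1 did not pass, against 34.4% and 34.9% of all tested genes. Arhgdib, the GDP dissociation inhibitor that holds Rac2 in the cytosol, was 1.36-fold higher (1036 ± 4.98 CPM in KO cells, 762 ± 4.69 CPM in WT cells). Among GTPase-activating proteins, Srgap2 was 1.52-fold higher, while Arhgap24 was 1.61-fold lower and Arhgap15 2.06-fold lower.

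Of 20 tested transcription factors reported to act on Cybb or its partners, 10 (50%) were higher, 6 lower and 4 did not pass. Over all tested genes 34.4% were higher and 34.9% lower. The list median was 0.13 on counts and -0.02 on TPM. On TPM 7 of these factors were higher and 8 lower. Of all 11817 tested genes 20.8% were higher on TPM and 5781 were lower, with a median of -0.12. The list median less that of all tested genes was 0.10 on TPM and 0.13 on counts. Irf1, which binds interferon response sites, was 2.09-fold higher (48.7 ± 0.488 CPM in KO cells, 23.3 ± 0.425 CPM in WT cells; SD, n = 3 each). Spi1, which encodes PU.1, was 1.33-fold higher (439 ± 2.06 CPM in KO cells, 330.1 ± 5.01 CPM in WT cells). Cebpa was 1.54-fold higher and Jun, an AP-1 chain, 1.46-fold lower. No binding was measured here, so these values stand beside the promoter letters as separate observations.

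**Figure D5:**
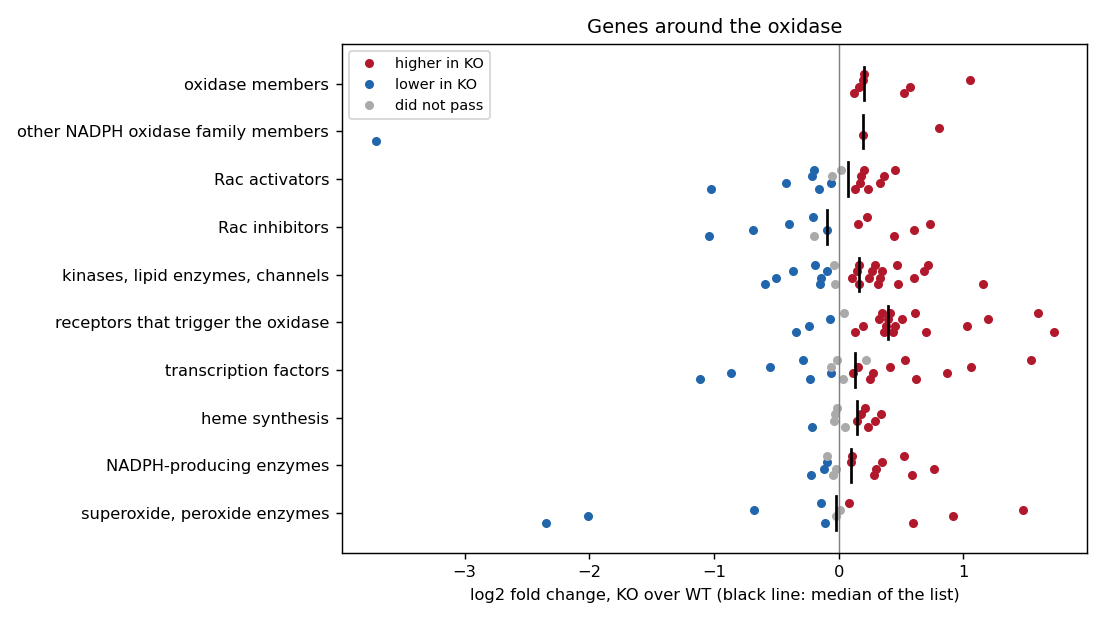
Log2 fold changes, KO over WT, of the tested genes of each pathway list and of the 7 oxidase genes, red where higher, blue where lower and grey where the test was not passed, with a black line at each list's median. The receptors have the highest list median (0.40) and the Rac inhibitors the lowest (-0.10), and Cybb at 1.06 is the highest of the oxidase genes.

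Supply and disposal lists were mixed. Heme synthesis, which serves the flavocytochrome, had 6 of 11 tested genes (54.5%) higher, 1 lower and 4 not passing on counts. On TPM 2 were higher and 1 lower. Over all tested genes 34.4% were higher on counts and 20.8% on TPM. The rate-limiting enzyme gene Alas1 was 1.16-fold higher, Urod 1.22-fold and Tmem14c 1.11-fold higher, and Fech 1.16-fold lower. Urod and Tmem14c did not pass on log2(TPM + 1) (adjusted p = 0.0809 and adjusted p = 0.939, limma). With the assumed coefficient of variation of 0.1 no gene of the heme list passed in edgeR, with adjusted p = 0.152 for Alas1, 0.0592 for Urod, 0.163 for Fech and 0.338 for Tmem14c. The list of NADPH-producing enzymes also held Nadk and pentose phosphate genes such as Tkt and Taldo1, whose enzymes do not themselves make NADPH. Of its 14 tested genes 8 (57.1%) were higher, 3 lower and 3 did not pass. On TPM 6 were higher and 6 lower, where 2463 of all 11817 tested genes were higher and 5781 lower. Nadk, which makes NADP from NAD, was 1.70-fold higher, G6pdx of the pentose phosphate pathway 1.51-fold, Idh1 1.27-fold and Pgd 1.22-fold.

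Genes for handling superoxide and peroxide did not move together, with 4 of 11 tested (36.4%) higher, 5 (45.5%) lower and 2 not passing. Over all tested genes 34.4% were higher and 34.9% lower, so the higher share was near that of all genes. The peroxiredoxin gene Prdx5 was 2.79-fold higher (685 ± 13.7 CPM in KO cells, 245 ± 8.13 CPM in WT cells). The mitochondrial dismutase gene Sod2 was 1.89-fold higher and the cytosolic Sod1 1.51-fold higher, whereas the extracellular Sod3 was 5.08-fold lower at a low level (1.04 ± 0.299 CPM in KO cells, 5.29 ± 0.616 CPM in WT cells). Other oxidase family genes described here are Rac3, 1.75-fold higher at a low level, and Nox1, with 5, 3 and 5 counts in KO libraries, against 57, 67 and 58 in WT libraries. A further 5 family genes did not pass the filter on low counts.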

How the data were processed

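RNA of 3 KO and 3 WT libraries was measured by RNA-seq. Per the submitters' processing notes, HISAT, Bowtie2 and the genome build GRCm38.p6 were used, in roles the notes leave out. For the counting program and gene models, names were not given in the sources used here. Expected (estimated) counts per gene were deposited, not whole for 8.66% to 9.19% of genes, and were rounded here. Per the file headers the authors also gave FPKM and TPM. Their deposited normalised signal is the estimated count scaled by a constant for each library and was not used. The authors' deposited table of log2 values equals log2(FPKM + 1) and lists all 7 members among 6784 genes.

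Genes were filtered with filterByExpr, which kept 11817 of 15824, and tested with edgeR 4.0.16 (R 4.3.3) by quasi-likelihood on TMM-scaled counts of all 6 libraries, with Benjamini-Hochberg adjustment over all tested genes. CPM used the same scaling. Alternatives were other scalings and filters, DESeq2 1.42.0, limma 3.58.1 on voom, FPKM and TPM, a replicate block, leaving out each library, an assumed coefficient of variation of 0.1, and leaving out sex-linked genes. Counts of 11811 genes were simulated with the same coefficient of variation, 1.66%, for every gene and with few genes changed. On them the fit called 19 of 50 genes changed 1.1-fold, 40 of 50 at 1.25-fold, 49 of 50 at 1.5-fold and 50 of 50 at 2-fold. It also called 8 of 11611 unchanged ones. In the data 69.2% of tested genes passed and the libraries may be technical, so these counts do not give the error rate here. Ratios to Cybb were compared by exact permutation.

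Members and lists were chosen with earlier results of these data known. The genes named are the members, the up to 4 genes of each list with the smallest p among those passing with groups apart, the 5 genes nearest to Cybb, and checks; 1 gene that this rule names is not reported here. Gene IDs matched the RefSeq table for 15774 genes and not for 50. RefSeq promoters were found for 4 members, and Rac1, Rac2 and Ncf4 are named only. Libraries of 1 group differed by more than sampling noise, with a chi-square of 1.37 to 1.61 per gene, so none was treated as a library deposited again; this does not show that they are separate mice. Intervals cover the spread between these libraries only.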

Additional observations from a re-analysis of the deposited data

How the results depend on the processing

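All 7 members stayed higher, and past the threshold, under every scaling of the counts, both other filters, DESeq2, voom and FPKM, and when any 1 library was left out (7 to 7 higher, 0 to 0 lower). Leaving out 1 library gave 7755 to 7935 called genes, 74 to 76 pathway genes higher and 32 to 37 lower. The difference from Cybb on the log2 scale then ranged from -0.889 to -0.832 for Cyba, -0.901 to -0.872 for Cybc1, -0.549 to -0.517 for Ncf1, -0.970 to -0.910 for Ncf4, -0.887 to -0.832 for Rac1 and -0.515 to -0.451 for Rac2. Ncf4 reversed to -0.0181 on log2(TPM + 1) and to -0.0182 on log2(TPM + 0.1), where Cybc1 also lost its call. With an assumed coefficient of variation of 0.1, 4406 genes were called, against 8179. Over all 11817 tested genes 2180 were then higher and 2226 lower. Members called higher fell to 3, against 7. Of 132 pathway genes 47 were then higher and 17 lower, against 76 and 37. Whether replicate numbers pair the libraries stayed undecided. Same-numbered KO and WT libraries had correlated deviations of 0.110, 0.0194 and 0.0528, and differently numbered ones between -0.0795 and 0.0282. KO replicate 2 correlated slightly better with WT replicate 3 than with WT replicate 2. The replicate block gave 8321 genes, 7 members higher, and 76 pathway genes higher and 37 lower. Among named genes outside the complex, 804 of 814 values kept direction and call, 10 lost the call and 0 reversed. Only 3 libraries per group and the low level of Sod3, Nox1 and Rac3 limit precision.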
